A study of Arabidopsis thaliana with 8 samples.

Results

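The genes described here are 10 Arabidopsis thaliana genes of the conducting cells of the phloem, the sieve elements, and of the companion cells beside them. They were taken by locus: APL (AT1G79430), SEOR1 (AT3G01680), SEOa (AT3G01670), CALS7 (AT1G06490), NAKR1 (AT5G02600), PP2-A1 (AT4G19840), AHA3 (AT5G57350), AKT2 (AT4G22200), FTIP1 (AT5G06850) and SUS5 (AT5G37180). All 10 were on the array, among 25665 loci, and all 10 were among the 20336 loci tested. The study measured total RNA of whole seedlings of the Columbia-0 ecotype, 2 weeks old, on 8 one-colour Agilent arrays. The wild-type group (n = 4) was compared with a group carrying 35S:MYB87-SRDX (n = 4), in which the MYB transcription factor MYB87, joined to the SRDX repression motif, is driven by the broadly active 35S promoter. The labels describe pools of 5 T2 seedlings grown at 23 °C under 16 h of light and 8 h of dark on agar medium with 1% sucrose. They do not say how many transgenic lines the T2 seedlings came from, and no group carried MYB87 without SRDX. Hygromycin was in the medium of the MYB87-SRDX seedlings but not of wild type, and each group lay on a slide of its own, so genotype, hygromycin and slide cannot be told apart. Nothing in the labels says that the samples of a group came from separate cultures, so the p-values reflect only how these samples scatter, which may be technical.

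Sieve elements are living tubes without a nucleus that carry sugars, ions, proteins and RNAs through the plant, and each depends on a companion cell for its proteins and energy. Companion cells load sucrose by means of a proton gradient, which plasma membrane proton pumps build up and potassium channels help to sustain. Filament-forming proteins and lectins of the phloem, and callose made by callose synthases, line or plug the sieve plates between tubes. The flowering signal FT also moves from companion cells into the sieve elements.

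Of the 10 genes, 8 were lower in MYB87-SRDX than in wild type at an adjusted p below 0.05, none was higher, and AKT2 and SUS5 did not pass. Over all loci tested, 27.6% passed, 12.5% as lower and 15.1% as higher. Levels are log2 processed signals scaled to the upper quartile (75th percentile) of each array. Differences are MYB87-SRDX minus wild type, ± the limma standard error (SE). The median difference of the 10 genes was -0.45, against 0.01 over all loci. The 8 lower genes were between 1.20-fold and 1.72-fold lower, so none reached 2-fold. Of all loci, 2.43% passed as lower and were at least 2-fold lower. In 7 of the 10 genes every transgenic array lay below every wild-type array, a pattern found in 13.1% of all loci. RNA of whole seedlings was measured, so fewer phloem cells and less RNA per phloem cell cannot be told apart. The count depended on the processing: over 21 alternatives it ran from 3 to 8 of 10, and SEOa, PP2-A1 and AHA3 passed in all of them.

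**Figure D1:**
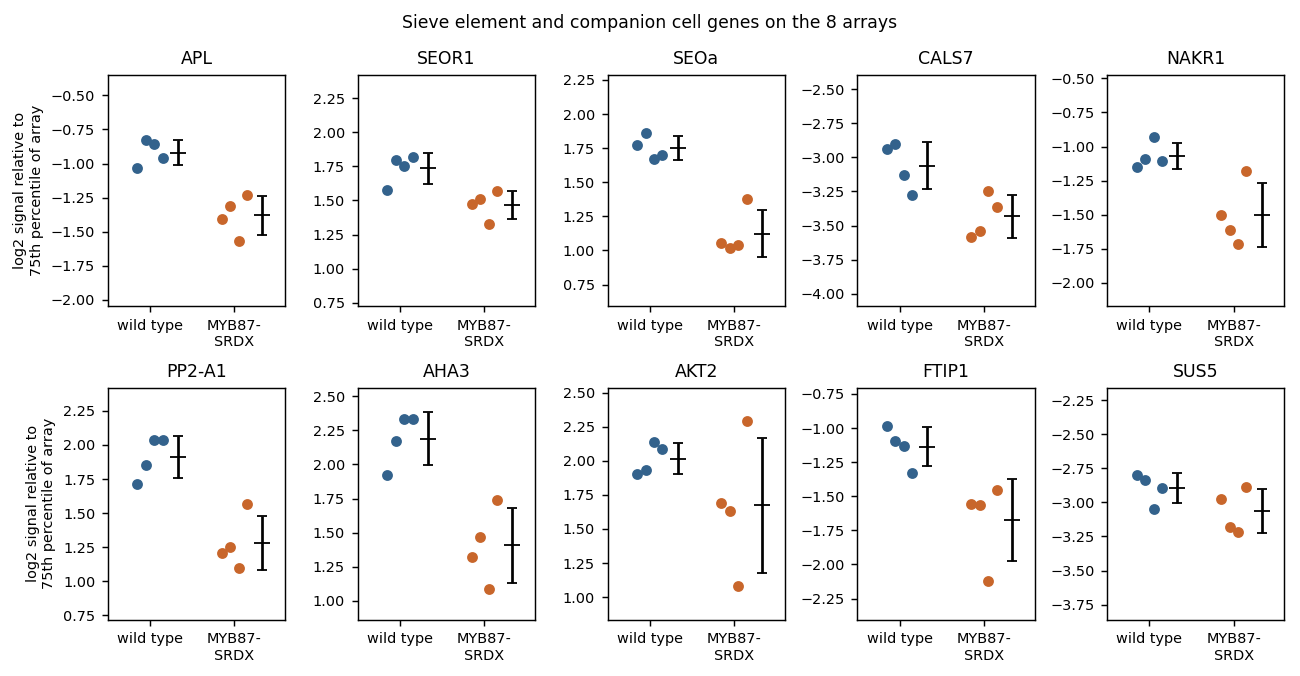
Log2 signal scaled to the upper quartile of each array (vertical axes, each spanning the same range of log2 units) for each of the 10 genes in wild type (blue) and MYB87-SRDX (orange). Points are arrays in order of replicate and the bars beside them are the mean ± SD (n = 4); CALS7, AKT2 and SUS5 overlap between the groups.

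The transgene was read from MYB87 (AT4G37780). Its level was -5.48, -7.20, -7.44 and -7.08 on the wild-type arrays, only 2 of which showed it well above background, and 5.75, 5.52, 5.58 and 2.54 on the transgenic arrays. All 4 transgenic samples were far above wild type, and replicate 4 was well below the other 3. The probe does not tell the native transcript from the fusion.

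APL encodes a MYB-type transcription factor needed for phloem identity. Its level was -1.03, -0.83, -0.86 and -0.96 on the wild-type arrays and -1.41, -1.31, -1.57 and -1.23 on the transgenic ones. The groups were separate, with transgenic replicate 3 the lowest and replicate 4 the highest of its group. APL was lower by -0.46 ± 0.089 log2 (adjusted p = 0.00943), or 1.37-fold. With median scaling the difference was -0.37 and missed the threshold (adjusted p = 0.065; 0.00419 to 0.224 over 21 alternatives).

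SEOa and SEOR1 encode the proteins that build the filaments of sieve elements, and they are the nearest tested neighbours of each other on chromosome 3. SEOa stood at 1.77, 1.86, 1.67 and 1.70 in wild type and at 1.06, 1.02, 1.04 and 1.38 in MYB87-SRDX. In 3 transgenic samples SEOa was nearly equal, and replicate 4 was higher but still below all wild-type samples. It fell by 0.63 log2 (SE 0.096, adjusted p = 0.00437). SEOR1 stood at 1.57, 1.79, 1.75 and 1.82 in wild type and at 1.47, 1.51, 1.33 and 1.57 in MYB87-SRDX. The highest transgenic sample of SEOR1 was only just under the lowest wild-type sample, by 0.004 log2. The difference of SEOR1 was -0.26 ± 0.082 (adjusted p = 0.0452), and it was lost under 11 of 21 alternatives, among them leaving out any array but wild-type replicate 1.

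Within an array, SEOa was 0.016 ± 0.15 log2 above SEOR1 in wild type and -0.35 ± 0.13 relative to it in MYB87-SRDX (mean ± SD, n = 4). The probes differ in brightness, so only the shift of this ratio has a meaning. The shift was -0.36 log2, and the groups did not overlap. This ratio and 2 others below were chosen after values were seen and are given as descriptions, with no test.

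CALS7 encodes the callose synthase of sieve plates. Its level was -2.94, -2.90, -3.13 and -3.28 in wild type and -3.58, -3.54, -3.24 and -3.36 in MYB87-SRDX. The groups overlapped, because transgenic replicate 3 lay above wild-type replicate 4. CALS7 was lower by -0.37 ± 0.113 (adjusted p = 0.0428), a call that 14 of 21 alternatives lost, among them leaving out wild-type replicate 1, 2 or 3 or MYB87-SRDX replicate 1, 2 or 4. Normexp background correction on all spots turned it to 0.15 (adjusted p = 0.817; 0.0189 to 0.817 over the alternatives). SUS5 encodes a sucrose synthase of sieve elements. It stood at -2.80, -2.83, -3.05 and -2.90 in wild type and at -2.98, -3.18, -3.22 and -2.88 in MYB87-SRDX. The groups overlapped widely, and the difference of -0.17 (95% interval -0.39 to 0.06, adjusted p = 0.226) did not pass; it was 0.091 with normexp on all spots.

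Of the genes of companion cells, AHA3 encodes a plasma membrane proton pump. It had levels of 1.92, 2.17, 2.34 and 2.33 in wild type and 1.32, 1.47, 1.09 and 1.74 in MYB87-SRDX. All transgenic samples were below all wild-type samples, with replicate 3 the lowest. The difference of AHA3, -0.78 ± 0.153 (adjusted p = 0.00958), was the largest of the 10, and 5.50% of all loci had a lower difference. PP2-A1 encodes a phloem lectin. It was at 1.71, 1.86, 2.04 and 2.04 in wild type and at 1.21, 1.25, 1.1 and 1.57 in MYB87-SRDX. The groups were separate, and PP2-A1 fell by 0.63 log2 (SE 0.120, adjusted p = 0.00891).

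NAKR1 encodes a metal-binding protein of companion cells that affects sodium and potassium levels and the long-distance movement of FT. Its level was -1.15, -1.09, -0.93 and -1.10 in wild type and -1.50, -1.61, -1.71 and -1.18 in MYB87-SRDX. Replicate 4 of the transgenic group came within 0.03 log2 of the lowest wild-type sample, while the other 3 were clearly lower. The difference was -0.43 ± 0.119 (adjusted p = 0.0315) and was lost under 12 of 21 alternatives, among them leaving out wild-type replicate 2, 3 or 4 or MYB87-SRDX replicate 1, 2 or 3. A further NAKR1 probe, for another transcript, was well above background on 1 array of each group and was not used.

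FTIP1 encodes the protein that passes FT from companion cells to sieve elements. It stood at -0.99, -1.1, -1.13 and -1.33 in wild type and at -1.56, -1.56, -2.12 and -1.45 in MYB87-SRDX. The groups were separate, and transgenic replicate 3 lay far below the rest of its group. FTIP1 was lower by -0.54 ± 0.153 (adjusted p = 0.0344), and 11 of 21 alternatives lost the call, among them leaving out wild-type replicate 1, 2 or 3 or MYB87-SRDX replicate 1 or 2. AKT2 encodes a potassium channel of the phloem. It was at 1.90, 1.93, 2.14 and 2.09 in wild type and at 1.69, 1.63, 1.08 and 2.29 in MYB87-SRDX. The transgenic samples spread widely, from below all wild-type samples to above them all. The SD of AKT2 was 0.11 in wild type and 0.49 in MYB87-SRDX, and the difference of -0.34 (95% interval -0.86 to 0.18, adjusted p = 0.283) did not pass. For AKT2 it was -0.55 (adjusted p = 0.0512) without MYB87-SRDX replicate 4 and -0.14 (adjusted p = 0.555) without replicate 3; over 21 alternatives the adjusted p ran between these values.

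Most of the 10 genes had their extremes on the same transgenic arrays. Transgenic replicate 4 was the highest of its group for 9 of the 10 genes, and for 36.6% of the loci called lower and 21.9% of all loci. Replicate 3 was the lowest for 8 of the 10 genes, and for 30.3% of all loci. The median of the 10 genes, relative to the wild-type mean of each, was -0.46, -0.45, -0.68 and -0.31 on transgenic replicates 1 to 4. Replicate 4 also had the lowest MYB87 level of its group, at 2.54, while replicate 3, at 5.58, lay between replicates 1 and 2. The part of the MYB87 level in the phloem values was not tested. Without replicate 4, the median difference of the 10 genes was -0.54 and 6 genes passed. Without replicate 3, these were -0.39 and 6.

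**Figure D2:**
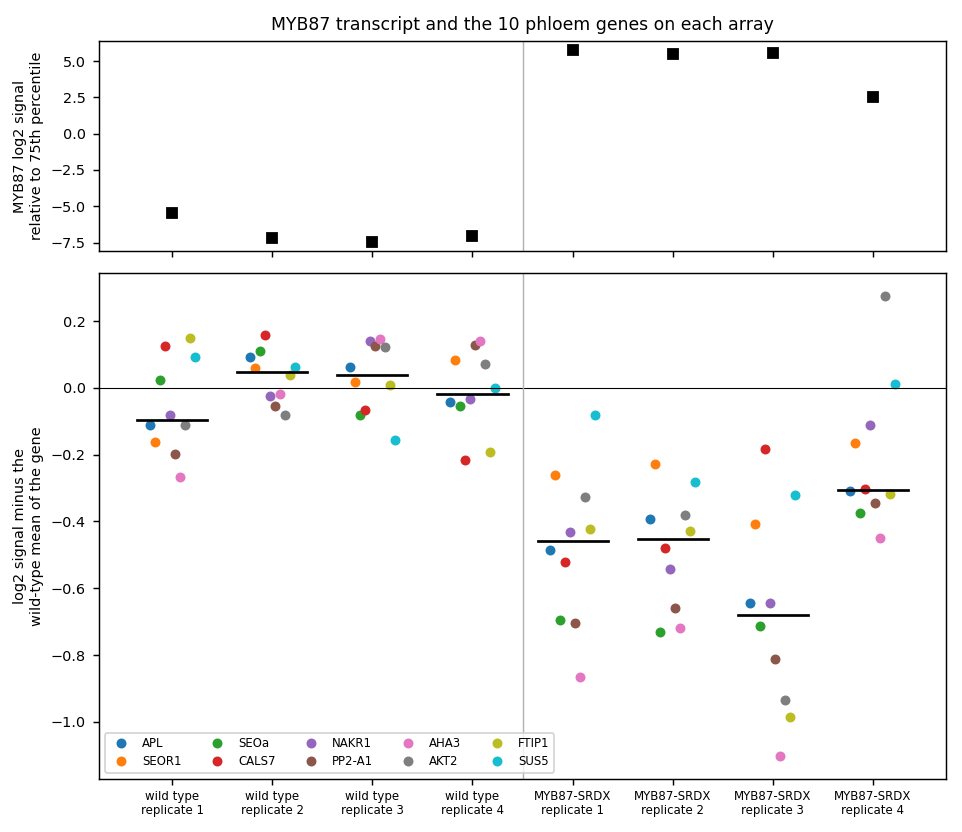
Top, scaled log2 signal of MYB87 on each of the 8 arrays. Bottom, log2 signal of the 10 genes on the same arrays minus each gene's wild-type mean, with the median of the 10 as a black line; the line is lowest on MYB87-SRDX replicate 3 (-0.68) and, within that group, highest on replicate 4 (-0.31), the array with the least MYB87 signal.

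Over the 45 pairs of the 10 genes, the median Pearson r of levels across 8 arrays was 0.79, which includes the difference between the groups. With deviations from the group means the median r was 0.58 and 38 pairs were above 0. PP2-A1 and AHA3 were the most alike in this measure, with r = 0.97. All 7 pairs below 0 included CALS7, down to -0.52 with SEOR1. Over the 4 wild-type arrays alone the median r was 0.10 and 22 of 45 pairs were negative, so the likeness within groups was not seen in wild type. All pairs share the same arrays and scaling, so these are descriptions. Outside the 10, the loci whose levels were most like their mean standardised profile were AT2G03500 (r = 0.99), AT1G64360 (r = 0.99), UPS2 (r = 0.99), CDF1 (r = 0.99) and BR6OX1 (r = 0.99). All 5 were lower in MYB87-SRDX, but so was the profile they were matched to, so this is no separate result. For deviations from the group means the most alike were AT1G52100 (r = 0.99), AT2G03500 (r = 0.98), AT1G16515 (r = 0.98), CDF1 (r = 0.97) and UPS2 (r = 0.97). Of these, AT1G52100 did not pass. AT2G03500, UPS2, which encodes a ureide permease, and CDF1, which encodes a Dof-type repressor of flowering, stood in both sets of 5.

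The relatives of these genes did not all move with them. Over all loci 12.5% were lower and 15.1% higher. The counts among proton pumps, callose synthases and PP2-A genes were near these shares and say nothing particular about those families. Of 5 other sucrose synthases, SUS3, SUS4 and SUS6 were lower, by -0.57, -2.60 and -0.74 log2 (adjusted p = 0.00553, 0.00747 and 0.00794), and none was higher. With normexp on all spots none of the 5 passed. SUS4 spread widely in wild type, at -0.03, -0.74, -2.14 and -1.58 (SD 0.93), so its difference is imprecise (SE 0.47). SUS6 is, like SUS5, a sieve element enzyme. It was at -1.21, -1.30, -1.63 and -1.60 in wild type and at -2.37, -2.24, -2.23 and -1.89 in MYB87-SRDX, with no overlap. Within an array the ratio of SUS6 to SUS5 was shifted by -0.58 log2, with groups that did not overlap. SUS1, at -0.48 (adjusted p = 0.0941), did not pass.

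Of 9 other plasma membrane proton pumps tested, AHA2, a major pump of roots and shoots, was lower by -0.79 (adjusted p = 0.00459), about as much as AHA3, and AHA4 was higher by 0.41 (adjusted p = 0.0144). AHA1, the other major pump, was at -0.23 (adjusted p = 0.0753). Of 10 other callose synthases, CALS5 was lower by -0.82 (adjusted p = 0.0379), with groups that overlapped, and the other 9 did not pass. CALS5 was dim and lost its call under 11 of 21 alternatives, among them normexp on all spots, which gave 0.41. Of 6 other Shaker-type potassium channels tested, KAT1, a channel of guard cells, was lower by -0.91 (adjusted p = 0.00132), and SKOR, which releases potassium into the xylem, was lower by -1.27 (adjusted p = 0.0152).

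Of 13 other PP2-A lectin genes tested, PP2-A2 and PP2-A12 were lower, by -0.82 and -0.44 (adjusted p = 0.00347 and 0.00567), and PP2-A5 and PP2-A11 were higher, by 1.15 and 0.75 (adjusted p = 0.0147 and 0.00132). PP2-A2 lies next to PP2-A1 and had a weak signal, with levels of -5.0, -5.05, -4.98 and -5.0 in wild type and -6.15, -5.75, -5.85 and -5.57 in MYB87-SRDX. The ratio of PP2-A2 to PP2-A1 was shifted by -0.19, with groups that overlapped. PP2-A2 was at 0.46 with normexp on all spots. Probe sequences were not used here, so signal shared between close relatives cannot be told apart.

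**Figure D3:**
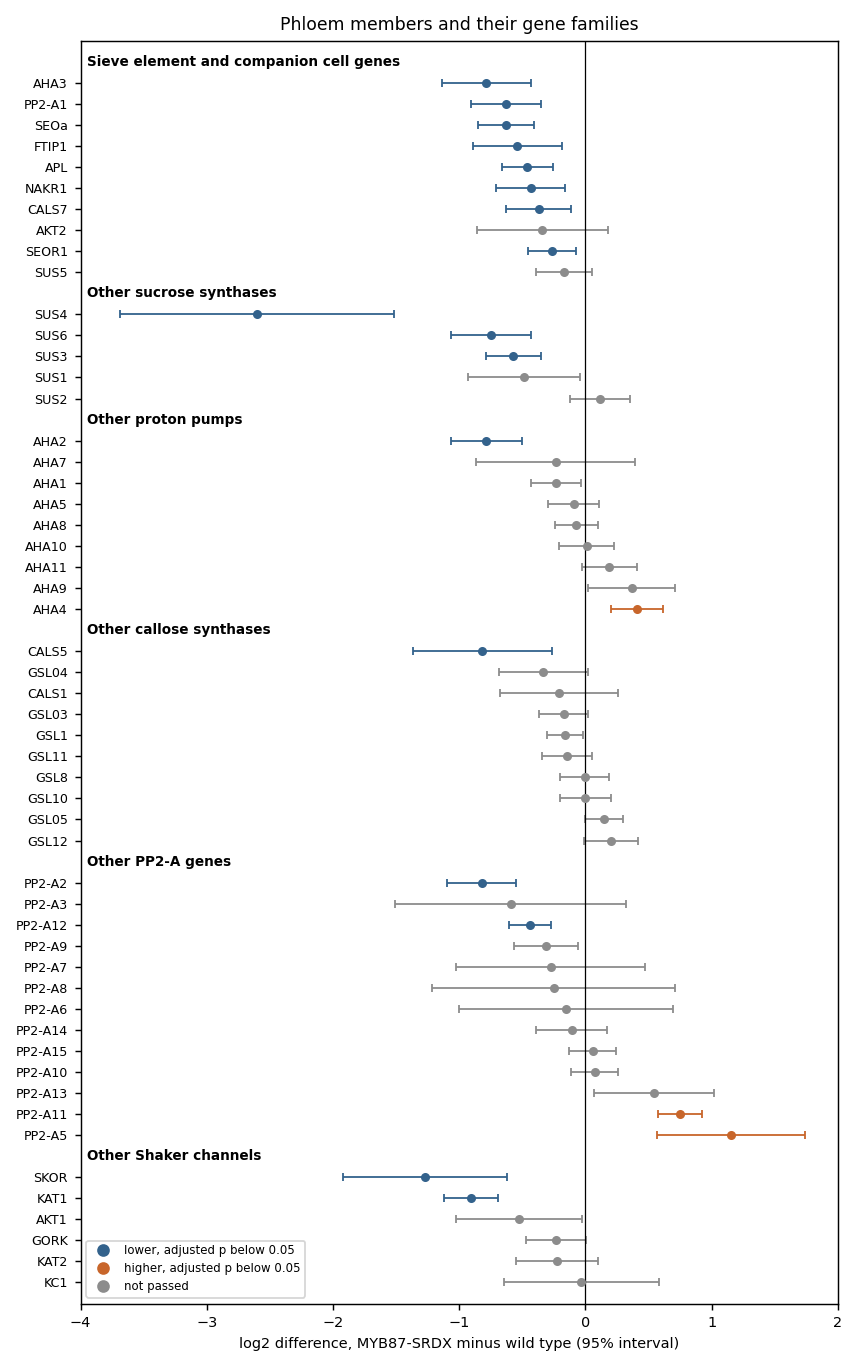
Log2 difference, MYB87-SRDX minus wild type, with its 95% interval from the limma fit (n = 4 per group), for the 10 phloem genes and the other tested members of 5 gene families. Blue genes passed the threshold as lower, orange as higher and grey did not pass; SUS4 lies farthest to the left at -2.60 and PP2-A5 farthest to the right at 1.15.

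Genes that act before or beside the 10 were counted in further lists. Of 16 phloem development genes tested, 9 were lower and none was higher, with a median difference of -0.42. BRX, a regulator of protophloem differentiation, was lower by -0.82 (adjusted p = 0.0102), and NAC045, a factor acting downstream of APL in sieve element enucleation, by -0.73 (adjusted p = 0.00294). Both were dim, and normexp on all spots turned them to 0.46 and 0.59. SMXL3, SMXL4 and SMXL5, which promote phloem formation, were lower by -0.48, -0.61 and -0.30 (adjusted p = 0.0208, 0.0166 and 0.0479). These calls were lost under 7, 4 and 12 of 21 alternatives. BAM3, a receptor kinase of the protophloem, was lower by -0.31 (adjusted p = 0.0286), a call lost under 8 of 21 alternatives. The Dof factors TMO6, DOF2.4 and AT5G02460 were lower by -0.43, -0.47 and -0.47. CVP2, a phosphatase of vein patterning, was at -0.42 (adjusted p = 0.0564), OPS, a protophloem polarity protein, at -0.18 (adjusted p = 0.313), and NAC086, a close relative of NAC045, at -0.35 (adjusted p = 0.247). NEN4, CVL1 and HCA2 also did not pass, at -0.42, -0.28 and -0.21 (adjusted p = 0.288, 0.187 and 0.145). CHER1 was at 0.037 (adjusted p = 0.705). With normexp on all spots 1 of the 16 passed, with the authors' values unscaled 2, and with median scaling 4. Without wild-type replicate 2, without MYB87-SRDX replicate 1 or with a replicate block, 5 passed.

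Of 10 phloem transport partners, 6 were lower and none was higher, with a median difference of -0.78. The 6 include SUS6 and PP2-A2, already described with their families above, so the list is not a wholly separate set. SUC2, the sucrose-proton symporter that loads the phloem, was at 2.59, 2.83, 2.86 and 2.47 in wild type and at 1.54, 1.88, 1.36 and 2.08 in MYB87-SRDX. Its groups were separate, and it was lower by -0.97 ± 0.169 (adjusted p = 0.00658). FT was at -2.61, -2.22, -2.59 and -2.41 in wild type and at -4.63, -4.35, -4.56 and -3.74 in MYB87-SRDX, lower by -1.87 ± 0.198 (adjusted p = 0.00148). With normexp on all spots FT was at -0.74 and did not pass (adjusted p = 0.421; 0.000794 to 0.421 over 21 alternatives), and without spots of high local background it was at -1.13 and passed. The transgenic replicate 4 was again the highest of its group for both genes. SULTR2;1, a sulfate transporter of vascular tissue, and GLN1;4, a glutamine synthetase, were lower by -1.57 and -1.63. GLN1;4 was at -0.82 and did not pass with normexp on all spots, under which 2 of the 10 partners passed. SWEET12, a sucrose exporter of phloem parenchyma, was at -0.28 (adjusted p = 0.0969). SWEET11, NHL26 and CIPK6 were near 0, at 0.069, -0.060 and 0.0006 (adjusted p = 0.777, 0.771 and 0.997).

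Markers of other cell types were read beside these genes. All 7 xylem markers were lower, from -0.76 for VND7 to -1.33 for XCP1, with a median of -1.01. With normexp on all spots 4 of the 7 passed, and VND7, MYB46 and CESA7 did not. Of 5 cambium markers, 4 were lower, with a median of -0.34. Of 4 guard cell markers, 3 were lower. The other, MYB60, was at 0.25 (adjusted p = 0.0671), with every transgenic array above every wild-type array. With normexp without spots of high local background, 1 guard cell marker passed as higher. With median scaling 1 cambium and 1 guard cell marker passed, and without wild-type replicate 2 these were 2 and 1. The cambium count was also 2 without wild-type replicate 4 or MYB87-SRDX replicate 1 or 2. Of 5 mesophyll markers, 1 was higher, LHCB2.1 at 0.87, and the other 4 did not pass. LHCB2.1 was much dimmer than the other 4, with a wild-type mean of -3.35, and lost its call under 5 of 21 alternatives. None of 4 epidermis and 4 root hair markers passed in the limma fit, nor did any at an unadjusted p below 0.05. With array weights, or without wild-type replicate 1, 1 epidermis marker passed as lower. The root hair markers split the wild-type arrays, with a log2 summed signal from -1.04 to 0.87, against -1.0 to -0.24 in MYB87-SRDX. Without wild-type replicate 1, 1 root hair marker passed as higher, and without wild-type replicate 3, 1 passed as lower. The log2 of the summed signal ran from 3.1 to 3.75 in wild type and from 2.13 to 2.47 in MYB87-SRDX for xylem, and from 8.22 to 8.71 and from 8.37 to 8.67 for mesophyll. For the 10 phloem genes it ran from 4.24 to 4.45 and from 3.59 to 4.19. The part of tissue composition in the phloem values was not tested.

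**Figure D4:**
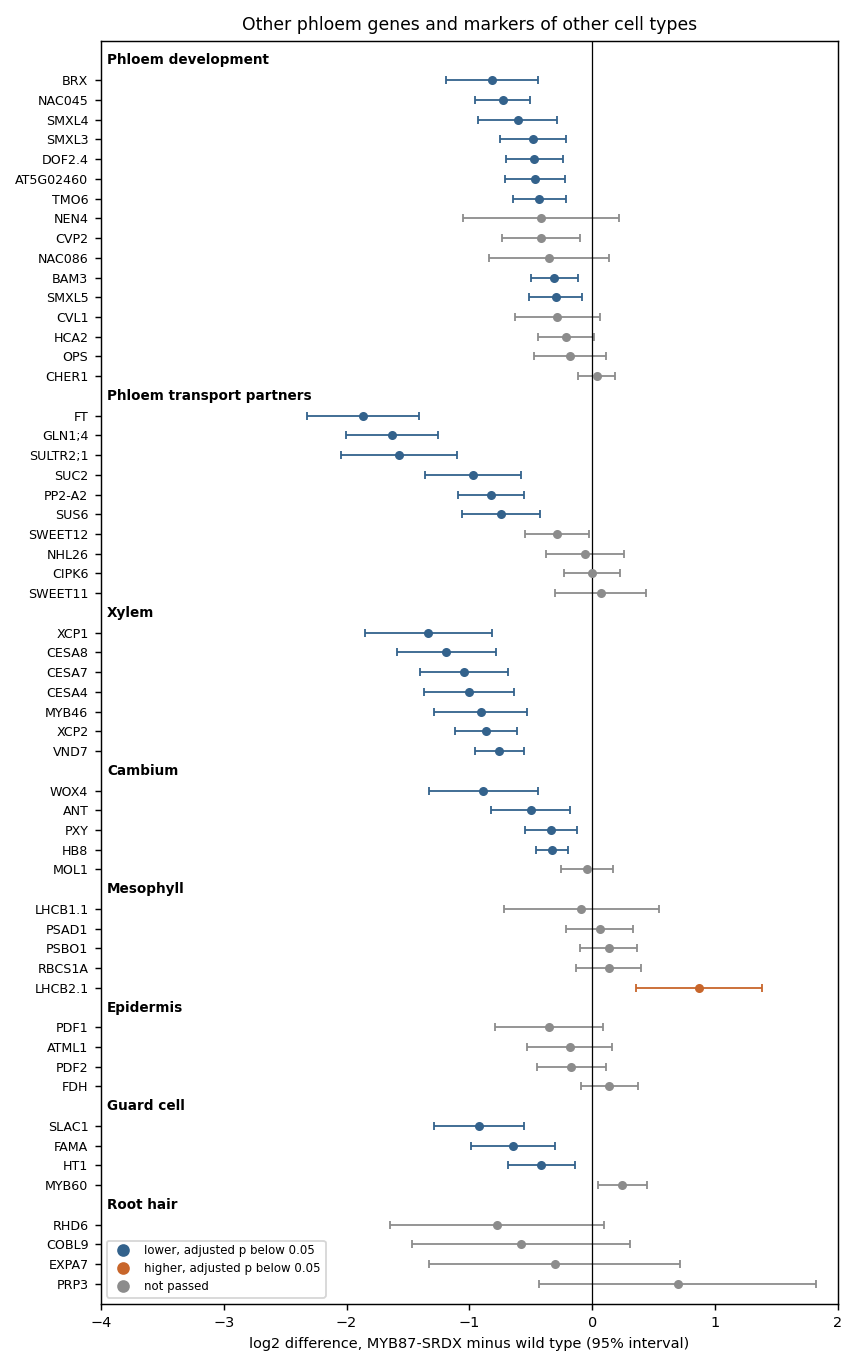
Log2 difference, MYB87-SRDX minus wild type, with its 95% interval (n = 4 per group), for other phloem genes and for markers of 6 further tissues or cell types; colours as blue for lower, orange for higher and grey for not passed. All 7 xylem markers lie to the left of 0 and pass, while LHCB2.1 is the mesophyll marker that passes to the right of it and the other mesophyll and epidermis markers did not pass.

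The nearest tested loci on either side of the 10 genes, looked at after values were seen, gave 18 neighbours that are not among the 10. Of these, 2 were lower, PP2-A2 and AT1G79420, 3 were higher, and 13 did not pass. Such counts were near the shares over all loci, 12.5% lower and 15.1% higher. The median difference of the 18 neighbours was 0.12.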

How the data were processed

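Spot intensity on a linear scale was taken from the deposited scanner tables; the submitters' processing notes name Agilent Feature Extraction, version 9.1.3.1. The authors' deposited value table holds the same processed intensity times a constant per slide, and was an alternative. Each array's log2 processed signal was reduced by its 75th percentile over 37685 non-control spots, outlier spots were left out and spots of a probe averaged. Probes had to be well above background on 3 or more arrays of either group, and the brightest such probe represented its locus. On each array 63.1% to 65.5% of spots met that mark, and the number of arrays limits precision. All 8 arrays entered limma 3.58.1 (lmFit, eBayes; R 4.3.3), with Benjamini-Hochberg adjustment over 20336 loci and a threshold of 0.05. The 10 genes and all lists were chosen with earlier results of these data known; all 10 are named, other listed genes mainly where they passed, and the 5 loci most alike in each of 2 measures. Those named without passing were chosen after their values were seen. Alternatives comprised scaling, background correction, the authors' values, filters, probe choice, variance models, array weights, a replicate block and leaving out each array. The steps were tested on simulated data. Names of listed genes are mostly common ones and in places differ from the TAIR10.1 gene table, which has HA3 for AHA3. Other loci follow that table, and no genome was used.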

Additional observations from a re-analysis of the deposited data

Results flagged for a closer look

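Among 214 groups of 4 arrays (107 genes in 2 groups), 9 had 1 array whose gap to its nearest neighbour exceeded Dixon's 95% critical value; chance flags about 1 in 20 groups. Of the 20 groups of the 10 phloem genes, 2 did so. SEOa on MYB87-SRDX replicate 4 was at 1.38, against 1.02 to 1.06 on the other 3 arrays. FTIP1 on MYB87-SRDX replicate 3 was at -2.12, against -1.56 to -1.45. MYB87 on replicate 4 was at 2.54, against 5.52 to 5.75, and SUS4 on the same array was at -2.88, against -4.06 to -3.94. HCA2 on replicate 3 was at -1.52, against -1.82 to -1.77. On wild-type replicate 4, SUS3 was low at -1.0, GORK at -1.69 and PP2-A14 at -1.19, while PSAD1 was high at 6.79.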

How the results depend on the processing

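Of the 10 genes, SEOa, PP2-A1 and AHA3 passed and AKT2 did not in all 21 alternatives. All 10 differences were negative in 20 of 21. The number lower was 3 with median scaling, 3 with the authors' values unscaled, 5 with quantile normalization, 5 with no filter on dim probes and 4 to 6 when each array was left out, with 4 without wild-type replicate 2 or 3 or MYB87-SRDX replicate 1 or 2. The planned normexp correction on all spots gave 4 (SEOR1, SEOa, PP2-A1 and AHA3), and was the exception in sign. On MYB87-SRDX replicate 4 it raised the 5th percentile of signal to 656, against 61.4 to 65.5 on the other arrays; 6 spots there had a local background over 10 times the array's median, up to 27603. Normexp was therefore run again without such spots, an alternative added after the first result was seen; that percentile became 81.5 and 6 of the 10 were lower. On all spots, CALS7 turned to 0.15, SUS5 to 0.091, BRX to 0.46, NAC045 to 0.59, NAC086 to 0.60, DOF2.4 to 0.12, CALS5 to 0.41, PP2-A2 to 0.46 and HT1 to 0.034; without the spots NAC086 was still at 0.025, and BRX, NAC045, PP2-A2 and CALS5 were negative but did not pass. Over all loci, against 3064 higher and 2540 lower, normexp on all spots gave 765 and 471, the authors' unscaled values 1102 and 1095, and median scaling 1381 lower with 66.0% of calls higher, against 54.7%. Leaving out arrays gave 1576 to 3109 higher and 1375 to 2897 lower. Replicate numbers did not pair the samples (r of deviations 0.09, 0.09, 0.16 and -0.22); with the replicate block 4 of the 10 were lower and 1812 loci higher, and PP2-A5 did not pass. Dim probes such as NAC045 are least certain.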
